A study of Homo sapiens with 18 samples.

Results

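The transcriptional response of HT29 cells to oxaliplatin (OXA) was read from 6 of the 18 arrays of the study, which were chosen by their sample titles. HT29 is an established human colorectal adenocarcinoma cell line. In 3 arrays the cells had received no drug. The labels call them untreated and the study's methods describe a basal condition without treatment, whereas its results speak of vehicle. In the other 3 arrays the cells had been exposed for 24 h to OXA alone at 10 µM, a dose taken as the IC50 of the line. The labels call the 3 arrays of a group biological replicates without saying how the cultures were separated, so the errors given here measure the spread between these arrays. The remaining 12 arrays hold HT29 after OXA plus Curcumin and the OXA-resistant subline HTOXAR3 under 3 conditions. Of these, untreated HTOXAR3 and HTOXAR3 after 24 h with OXA at 30 µM were used for a comparison between the lines, and the others entered the model only as a source of its error. Every array is a one-colour Agilent human array, on which the Cy3 fluorescence of a spot with a 60-base probe reports the abundance of the RNA that binds to it. All values below are normalized log2 intensities, a change is the mean of the OXA arrays minus the mean of the untreated arrays, and probe positions come from the annotation of the array, on GRCh37. No level of one probe is compared with that of another, because probes differ in how brightly they bind.

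OXA is a platinum drug that binds purine bases of DNA, mainly neighbouring guanines, and leaves adducts that block replication and transcription. Cells meet such adducts with checkpoint signalling, nucleotide excision and crosslink repair, and translesion synthesis. DNA damage can also release NF-κB, a family of dimeric transcription factors held in the cytoplasm by IκB proteins, and OXA is further known for disturbing nucleoli, where ribosomes are assembled.

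The share of spots well above background, controls left out, was 58.0% to 60.7% in untreated cells and 62.4% to 63.0% after OXA. Arrays of the same group correlated at 0.989 to 0.990 over gene names and arrays of different groups at 0.982 to 0.987. The label of the line was checked against epithelial markers. Of 13 colon epithelial markers, 11 were well above background on all 6 arrays, among them *EPCAM*, *CDH1*, *KRT8*, *KRT18*, *KRT19* and *LGALS4*, while the cadherin *CDH17* and the glycoprotein *GPA33* were not. None of 8 fibroblast markers was well above background on all 6 arrays. The collagen gene *COL1A1* was so on none of the untreated and all 3 OXA arrays, at least 1.99-fold higher (adjusted p = 0.00139), *FAP* and *LUM* were on 1 untreated and 1 OXA array each, and *COL1A2*, *COL3A1*, *DCN*, *PDGFRB* and *THY1* on none of the 6. The 7 leukocyte markers on the array were, with summed log2 intensities of 52.0 to 52.4 before and 52.0 to 53 after OXA, and among them *CD14* fell (by 0.92). The part of such transcripts in the results was not tested.

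A gene was called when its adjusted p in limma (Benjamini-Yekutieli, BY) was below 0.05 and its fold change above 1.2. Of 36204 gene names, 5774 were called, which is 15.9%. Of these, 3016 (8.33% of all names) were higher after OXA and 2758 (7.62%) were lower. The median size of a called change was 0.62, and the median change over all gene names was -0.0082. Among the 19363 genes well above background on all 6 arrays, 28.5% were called, 14.6% of them higher and 13.8% lower as shares of those genes. The 3 arrays of each group did not overlap for 6202 gene names that were higher after OXA (17.1%) and for 6078 that were lower (16.8%).

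The number of calls depended on how many arrays gave the error. With the 6 HT29 arrays alone, 1338 gene names were called, of which 1326 were also called with all 18 arrays. Untreated and OXA arrays of HT29 with the same replicate number shared a slide, which did not hold for all of the other arrays. With slide as a block, 6124 gene names were called from 18 arrays, and none from the 6 HT29 arrays, where only 2 residual degrees of freedom were left, the smallest adjusted p was 0.172, 11062 gene names had an unadjusted p below 0.05 and 4082 passed Benjamini-Hochberg adjustment.

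The called members of 30 lists of genes with a shared role are shown beside the share of all gene names called. The lists with the highest shares of rises held interferon-stimulated genes, feedback genes of the MAPK cascade and NF-κB genes, and those with the highest shares of falls held clustered histones, genes of G2 and mitosis, the unfolded protein and ATF4 response, and cholesterol synthesis.

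**Figure D1:**
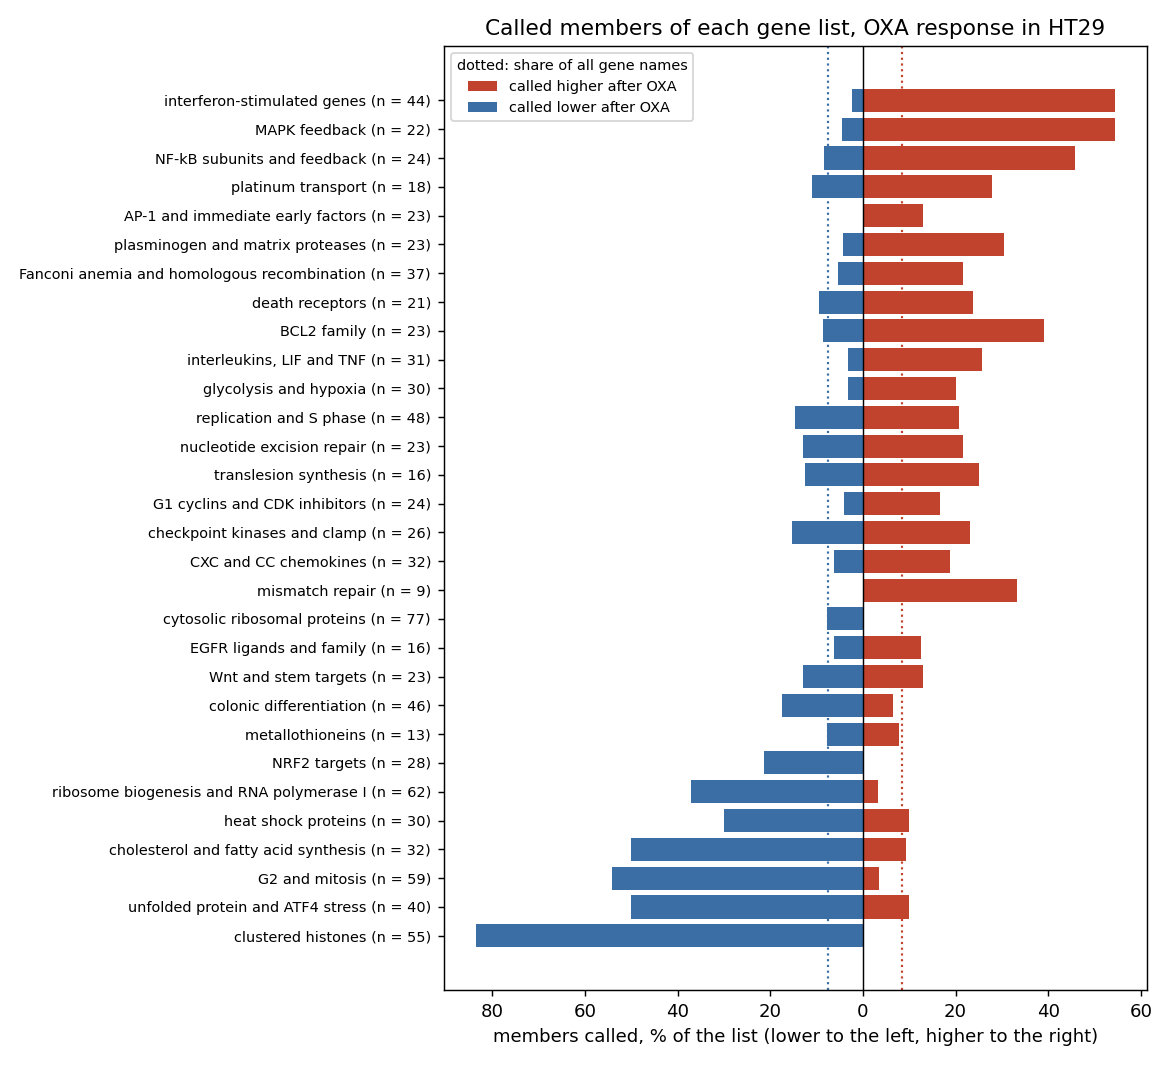
Share of each list's members on the array (n in brackets) that were called higher (bars to the right) or lower (bars to the left) after OXA in HT29, in percent, ordered by the median change of the list. Dotted lines mark the shares over all gene names, 8.33% higher and 7.62% lower, while among genes well above background they are 14.6% and 13.8%. Interferon-stimulated genes stand at the top with 24 of 44 members called higher, and clustered histones at the bottom with 46 of 55 called lower.

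NF-κB genes rose more often than they fell. Of 24 subunits, inhibitors and feedback genes, 11 rose, 2 fell and the median change was 0.30. On the untreated arrays *BIRC3*, which encodes the ubiquitin ligase cIAP2 of the TNF receptor complex, stood at 8.27, 8.47 and 8.34, and after OXA at 10.98, 11.17 and 11.18. All OXA arrays lay far above all untreated arrays, a 6.73-fold rise (log2 change 2.75 ± 0.09 SE, n = 3 per group, adjusted p = 7.42e-10). In the non-canonical branch of the pathway the kinase NIK drives the processing of p100 to p52 and its pairing with RelB. Of the genes of these proteins, which were picked from the list, *NFKB2*, the gene of p100, rose by 1.67 ± 0.07, *RELB* by 1.56 ± 0.07, and *MAP3K14*, the gene of NIK, by 1.46 ± 0.08. *NFKB2* went from 7.51, 7.42 and 7.52 to 9.15, 9.11 and 9.18, so that the groups were separated by many times their spread. Of the inhibitors, *NFKBIA* (IκBα) rose 1.33-fold (0.41 ± 0.09, adjusted p = 0.0271), and *RELA*, the gene of p65, was not called (0.23 ± 0.06, adjusted p = 0.117). The falls were those of *TRAF2*, an adaptor of TNF receptors, and of *N4BP1*. The value of *TRAF2* (-0.33 ± 0.05) rests on 1 of its 2 probes. The other probe read 0.35 and was not called, and the mean of both gave 0.01.

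Chemokines are secreted peptides that attract leukocytes. Of the 32 CXC and CC chemokines on the array, 16 were well above background on all 6 arrays. In the list 6 members rose (18.8%) and 2 fell (6.25%), beside 8.33% and 7.62% of all gene names. *CXCL8* (interleukin 8, a neutrophil attractant) was at 6.17, 6.58 and 7.34 on the untreated arrays and at 8.61, 8.60 and 8.56 after OXA. The untreated arrays spread over more than 1 log2 unit and the OXA arrays hardly at all, and the groups did not overlap (3.71-fold, 1.89 ± 0.21, adjusted p = 9.13e-05). *CXCL1*, which acts on the same receptor CXCR2, rose from 10.48, 10.46 and 11.02 to 12.39, 12.31 and 12.28 (3.19-fold, adjusted p = 4.38e-06). *CXCL3* rose from 6.72, 7.19 and 7.55 to 8.08, 8.28 and 8.30 (2.09-fold, adjusted p = 0.00158).

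The rise of *CXCL2*, from 10.15, 10.29 and 10.62 to 10.90, 11.01 and 10.83, was close to the threshold (1.47-fold, 0.56 ± 0.13, adjusted p = 0.0492). For each of these 4 genes the untreated array of replicate 3 was the highest of its group. The number of chemokines that rose fell from 6 to 3 when OXA replicate 2, OXA replicate 3, untreated replicate 1 or untreated replicate 2 was left out. The other 2 rises were those of *CCL5* (0.78 ± 0.16), an attractant of T cells, and of *CXCL6*, which was well above background on no untreated array and was at least 1.51-fold higher after OXA (adjusted p = 0.0222). The falls were those of *CCL15* (-0.97 ± 0.09) and *CXCL17* (-0.74 ± 0.12). *CXCL5* (-0.10 ± 0.08), a near relative of *CXCL6*, and *CCL20* (0.44 ± 0.27) were not called.

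Among 31 interleukins and related cytokines, 8 rose (25.8%) and 1 fell (3.23%), and the median change was 0.16. Only 15 of them were well above background on all 6 arrays. *LTB*, which encodes the lymphotoxin β that engages the non-canonical NF-κB pathway, was at 4.81, 4.75 and 5.51 before and at 7.89, 8.02 and 8.02 after OXA (2.95 ± 0.21, adjusted p = 1.63e-06), and it was well above background on only 1 untreated array. *IL23A*, the specific subunit of interleukin 23, rose 3.82-fold from 7.16, 7.19 and 6.95 to 9.25, 8.87 and 8.97. *TNFSF15*, a TNF family ligand, rose 3.06-fold, and *IL18*, an epithelial cytokine of the interleukin 1 family, fell (-0.59 ± 0.08). The suppressor of cytokine signalling *SOCS3*, a feedback inhibitor of JAK kinases, was not well above background on any untreated array and was at 6.88, 6.78 and 6.74 after OXA, at least 4.57-fold higher. *IL6* and *IL1A* were at or near background on most arrays and were not called.

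NF-κB dimers bind short elements known as κB sites. The 250 bases before the start of each gene, in RefSeq on GRCh38.p14, were searched on both strands for GGAATTTCC and for GGG, any 2 bases and TTTCC, which can overlap each other. These letters occur in 667 of 27305 promoters (2.44%). They occur in 10 of the 20 NF-κB genes with a promoter in the table, in 7 of 9 that rose, 3 of 9 that were not called and none of 2 that fell. They occur in 9 of 24 chemokines, in 5 of 5 that rose, 4 of 17 that were not called and none of 2 that fell. They occur in 4 of 24 interleukins and related cytokines, in 2 of 7 that rose and 2 of 17 that were not called. A match of letters is a description and no evidence of binding. The windows below are shown because they belong to chemokine, NF-κB and, for *LTB*, cytokine genes described above, and because the windows of *CXCL1*, *CXCL2* and *CXCL3*, neighbours on chromosome 4, are nearly alike. Each gives 60 bases, 5′ to 3′ in the direction of the gene, with the matched letters in capitals. *TNFAIP3*, the gene of the NF-κB inhibitor A20 (1.31 ± 0.22, adjusted p = 0.00379), was picked for its window after its values were seen.
CXCL8 (chr4:73740453-73740512, plus strand): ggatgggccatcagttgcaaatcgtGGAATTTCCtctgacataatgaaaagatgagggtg
CXCL1 (chr4:73869289-73869348, plus strand): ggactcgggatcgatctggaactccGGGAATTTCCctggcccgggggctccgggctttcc
CXCL2 (chr4:74099238-74099297, minus strand): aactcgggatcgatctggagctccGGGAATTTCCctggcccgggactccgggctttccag
CXCL3 (chr4:74038734-74038793, minus strand): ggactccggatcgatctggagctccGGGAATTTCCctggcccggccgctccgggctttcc
BIRC3 (chr11:102317260-102317319, plus strand): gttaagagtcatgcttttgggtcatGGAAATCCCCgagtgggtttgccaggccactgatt
TNFAIP3 (chr6:137867173-137867232, plus strand): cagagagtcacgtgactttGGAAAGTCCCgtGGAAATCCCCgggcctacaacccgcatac
NFKBIA (chr14:35404796-35404855, minus strand): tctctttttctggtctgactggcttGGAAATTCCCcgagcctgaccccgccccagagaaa
LTB (chr6:31582476-31582535, minus strand): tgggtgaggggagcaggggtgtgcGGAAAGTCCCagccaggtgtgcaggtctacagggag

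Interferon-stimulated genes are switched on by STAT factors with IRF9 after interferon, or by IRF factors directly when nucleic acids are sensed in the cytosol. Of the 44 on the array, 24 rose after OXA, 1 fell and the median change was 0.60. *MX1*, an antiviral GTPase, was at 8.30, 8.28 and 8.25 before and at 9.84, 9.87 and 9.76 after OXA, a 2.92-fold rise (1.55 ± 0.09, adjusted p = 2.29e-07). *HERC5*, the ligase that attaches the ubiquitin-like protein ISG15, rose 3.28-fold from 5.94, 5.87 and 6.20 to 7.35, 7.87 and 7.94. *IFIT2*, which binds foreign RNA, rose 2.88-fold. In both genes every OXA array lay above every untreated array. The sensors of viral RNA *RIGI* (0.91 ± 0.11) and *IFIH1* (0.79 ± 0.08) and the factors *IRF1* (0.77 ± 0.07), *IRF7* (0.44 ± 0.07), *IRF9* (0.92 ± 0.11) and *STAT2* (0.63 ± 0.06) rose, whereas the oligoadenylate synthetase *OAS1* (-0.02 ± 0.07) was not called. The probe of *RIGI* holds a run of 11 alternating C and T, a feature taken up further on. The fall was that of *BST2* (-0.27 ± 0.06), an antiviral tether of the cell surface, which was close to the threshold (adjusted p = 0.0473).

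The core of the interferon-stimulated response element, taken as GAAA, any 2 bases and GAAA on either strand, occurs in 1014 of the 27305 promoters (3.71%). It occurs in 23 of 34 interferon-stimulated genes with a promoter in the table, in 15 of 19 that rose, in 7 of 14 that were not called and in the 1 that fell. The 3 windows below show the element in capitals on either strand in genes that rose, *IFIT1* by 1.07 ± 0.18, *ISG15* by 0.99 ± 0.05 and the helicase gene *DDX60* by 0.84 ± 0.16. They were chosen after the values were seen and are 60 bases of RefSeq on GRCh38.p14.
IFIT1 (chr10:89392489-89392548, plus strand): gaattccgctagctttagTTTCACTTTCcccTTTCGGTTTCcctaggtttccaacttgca
ISG15 (chr1:1013363-1013422, plus strand): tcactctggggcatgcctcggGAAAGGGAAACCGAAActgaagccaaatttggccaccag
DDX60 (chr4:168318788-168318847, minus strand): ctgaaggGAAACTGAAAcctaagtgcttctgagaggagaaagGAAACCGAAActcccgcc

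**Figure D2:**
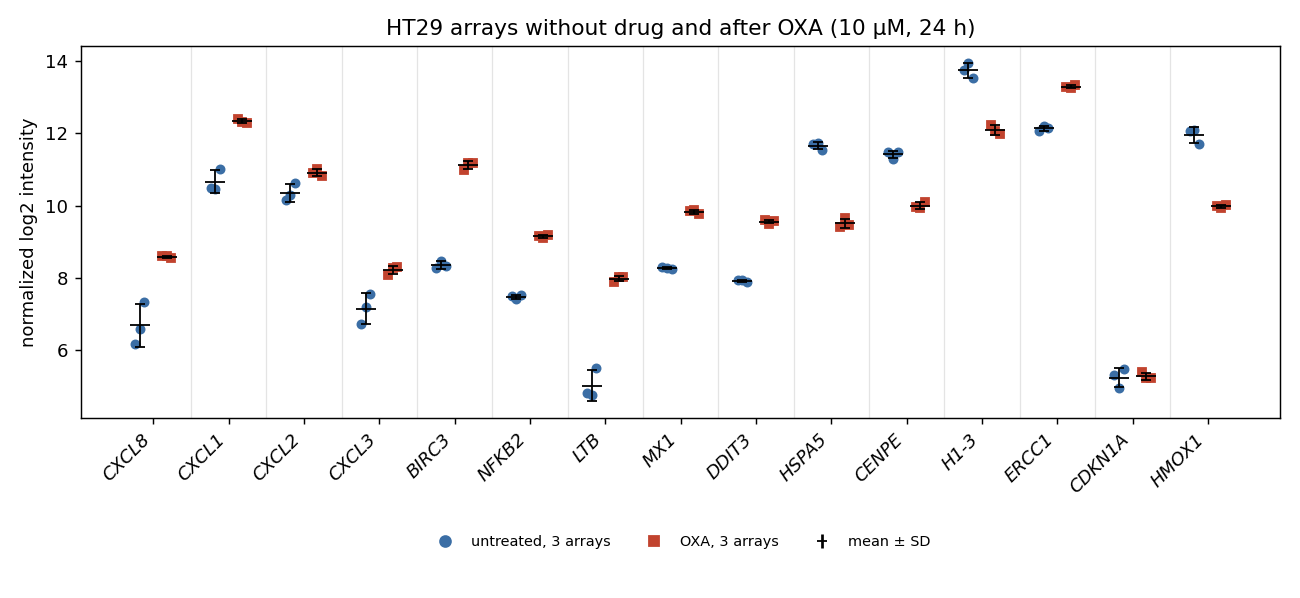
Normalized log2 intensity of 15 genes on each untreated (circles) and OXA-treated (squares) HT29 array, with the mean and SD of the 3 arrays of a group. *CXCL8*, *BIRC3*, *NFKB2* and *MX1* lie higher after OXA on every array, *HSPA5*, *CENPE*, *H1-3* and *HMOX1* lower, and *CDKN1A* overlaps (4.95 to 5.47 before, 5.22 to 5.40 after). Heights of different genes are not comparable.

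Genes of late cell cycle fell more often than they rose. Of 59 genes of G2 and mitosis, 32 fell, 2 rose and the median change was -0.40. *CENPE*, a kinesin that carries chromosomes to the spindle equator, went from 11.47, 11.30 and 11.47 to 9.95, 9.93 and 10.11 (2.67-fold lower, adjusted p = 1.01e-07). *KIF20A*, a kinesin of cytokinesis, fell from 10.27, 10.34 and 10.60 to 9.02, 9.14 and 9.18 (2.44-fold lower). Both groups of arrays were tight and far apart for these motors. *NCAPH*, a condensin subunit, fell by 1.19 ± 0.23, with untreated replicate 3 (6.63) well below the other untreated arrays (7.47 and 7.64). *BIRC5*, the gene of survivin, a member of the chromosomal passenger complex that also restrains caspases, fell 1.32-fold from 15.30, 15.34 and 15.33 to 14.81, 14.93 and 15.02 (adjusted p = 0.00117). The mitotic transcription factor *FOXM1* (0.34 ± 0.06) and the spindle protein *SKA3* (0.36 ± 0.08) rose.

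Of 48 replication genes, all well above background, 10 rose (20.8%) and 7 fell (14.6%), shares near the 14.6% and 13.8% of all such genes. *POLD1*, the catalytic subunit of DNA polymerase δ, rose 1.68-fold and the clamp loader subunit *RFC4* 1.39-fold, whereas the helicase subunit *MCM6* fell 1.72-fold, the chromatin assembly factor *CHAF1A* 1.74-fold and the repressor *E2F7* 1.96-fold. The clustered histone genes, which are transcribed in S phase, fell in most cases: 46 of 55 on the array were called lower, none higher, and the median change was -0.83. *H1-3*, a linker histone, went from 13.75, 13.94 and 13.53 to 12.24, 12.06 and 11.98 (3.13-fold lower, adjusted p = 3.41e-07). *H2AC16* fell 3.09-fold and *H1-5* 2.66-fold. The other 9 were not called. Many clustered histone genes are close in sequence, so a probe may read several of them, and the members are not independent measurements. With the 6 HT29 arrays alone, 4 histone genes were called lower.

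Of 24 G1 cyclins and CDK inhibitors, 4 rose (16.7%) and 1 fell (4.17%), beside 14.6% and 13.8% of genes well above background. *CCND1* (cyclin D1) rose 1.28-fold from 10.16, 10.21 and 10.19 to 10.48, 10.60 and 10.54 (adjusted p = 0.00265) and *CCND3* 1.34-fold. *CDKN1C*, the gene of the inhibitor p57, rose 1.49-fold. *CDKN1A*, the gene of the CDK inhibitor p21, was at 5.32, 4.95 and 5.47 before and at 5.40, 5.22 and 5.23 after OXA. These groups overlapped, and the change was 0.04 ± 0.14.

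*BBC3*, which encodes the death effector PUMA, fell from 12.19, 12.27 and 12.25 to 10.95, 10.99 and 10.96 (2.42-fold, adjusted p = 3.05e-06). *MDM2*, a ubiquitin ligase, was not called on the probe used (-0.19 ± 0.12), while its other 3 probes fell, by 0.33, 0.52 and 0.93, in order towards the 3′ end of the gene. The probe used was the one with the highest mean intensity and lies furthest to the 5′ side.

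All 26 checkpoint genes were well above background, and 6 rose (23.1%) and 4 fell (15.4%), beside 14.6% and 13.8% of all such genes. The rises dropped to 2 without OXA replicate 2 and to 3 without untreated replicate 1. *WEE1*, the kinase that holds CDK1 inactive, fell 1.53-fold and *CDC25C*, the phosphatase that releases it, 1.45-fold, whereas *PKMYT1*, a relative of *WEE1*, rose 1.54-fold. The kinase *ATR* fell 1.27-fold. Of 37 genes of the Fanconi anemia pathway and homologous recombination, all well above background, 8 rose (21.6%) and 2 fell (5.41%). *EME1*, a partner of the nuclease MUS81, rose 1.63-fold, and *FANCD2*, which marks crosslinks when ubiquitinated, 1.54-fold.

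*FAAP100*, a scaffold of the Fanconi core complex, had the largest fall of the repair genes: 11.19, 11.18 and 11.30 before and 7.99, 8.12 and 8.31 after OXA, an 8.48-fold difference (-3.08 ± 0.12, adjusted p = 4.33e-09). It lies near the end of chromosome 17q, a feature shared by many of the largest changes and described further on. *RAD51B* fell 2.00-fold. Of 23 genes of nucleotide excision repair, 5 rose (21.7%) and 3 fell (13%), beside 14.6% and 13.8% of genes well above background. *ERCC1*, the partner of XPF in the incision of platinum adducts, went from 12.06, 12.20 and 12.14 to 13.27, 13.26 and 13.34, a 2.23-fold rise without overlap (1.16 ± 0.06, adjusted p = 6.51e-08), and its other probe gave 1.19. *UVSSA*, which recruits TFIIH to stalled RNA polymerase, fell from 11.76, 11.94 and 11.89 to 9.31, 10.31 and 10.19 (3.81-fold). Like *FAAP100*, it lies near a chromosome end, that of 4p. *ERCC5*, the gene of the XPG nuclease, fell 1.49-fold.

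Of 16 translesion synthesis genes 4 rose (25%) and 2 fell (12.5%), beside 14.6% and 13.8% of genes well above background. *MAD2L2* (REV7) rose 1.58-fold, the ligase *RAD18* 1.56-fold and its partner *UBE2A* 1.47-fold, and *POLH*, the polymerase η that copies past platinum adducts, fell 1.51-fold from 7.68, 7.73 and 7.64 to 6.97, 7.24 and 7.05. Of 9 mismatch repair genes 3 rose (33.3%), among them *MLH3* by 0.72 ± 0.08 and the exonuclease *EXO1* by 0.51 ± 0.06, and none fell.

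Genes of protein folding in the endoplasmic reticulum and of the amino acid response fell more often than they rose. Of 40 genes of the unfolded protein and ATF4 responses 20 fell, 4 rose and the median change was -0.46. *HSPA5* (BiP), the main chaperone of the endoplasmic reticulum, was at 11.69, 11.73 and 11.54 before and at 9.42, 9.65 and 9.45 after OXA (4.43-fold lower, adjusted p = 3.91e-09). *ASNS* (asparagine synthetase) fell from 15.33, 15.34 and 15.20 to 13.78, 13.76 and 13.74 (2.89-fold) and *SLC7A5*, a carrier of large neutral amino acids, 2.89-fold. The 4 that rose were *DDIT3*, *ATF3*, *PPP1R15A* and *TRIB3*. *DDIT3*, the gene of the death-associated factor CHOP, went from 7.94, 7.93 and 7.89 to 9.6, 9.5 and 9.57 (3.11-fold higher, adjusted p = 4.81e-09), *ATF3*, a stress-induced repressor, rose 2.34-fold, and *PPP1R15A* (GADD34), which restores translation, 2.12-fold. *ATF4* fell by 0.29 ± 0.05 and *XBP1* by 0.90 ± 0.06.

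Of 30 heat shock proteins 9 fell (30%) and 3 rose (10%), beside 13.8% and 14.6% of genes well above background. The inducible *HSPA1A* fell 1.78-fold and its near copy *HSPA1B* 1.69-fold, which their probes may not tell apart, and *HSPA4L* fell 1.93-fold. The small heat shock protein *HSPB1* rose 1.39-fold and the heat shock factor *HSF1* 1.25-fold. Of 28 NRF2 targets, genes of antioxidant defence, 6 fell (21.4%) and none rose. *HMOX1* (heme oxygenase 1) fell from 12.06, 12.10 and 11.69 to 10.00, 9.92 and 10.01 (3.93-fold, adjusted p = 1.57e-07), *SLC7A11*, the cystine importer, 1.83-fold and *AKR1B10* 1.67-fold. The count of falls was 10 or 11 when arrays were scaled to their 75th percentile, which lowers the median of all gene names to -0.0904 with normexp values and to -0.101 with the scanner's processed values.

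In cholesterol and fatty acid synthesis falls outnumbered rises. Of 32 genes 16 fell, 3 rose and the median change was -0.35. *INSIG1*, the sterol sensor that retains SREBP in the endoplasmic reticulum, went from 10.64, 10.50 and 10.87 to 8.73, 8.71 and 8.80 (3.78-fold lower, adjusted p = 7.63e-08). *SQLE* (squalene epoxidase) fell 1.93-fold, *MSMO1* 1.92-fold, and the factor *SREBF1* by 0.93 ± 0.11. *ACSS2*, which makes acetyl-CoA from acetate, rose 2.23-fold, *FADS1* 1.61-fold and *TM7SF2* 1.53-fold.

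Genes that build ribosomes fell more often than they rose. Of 62 genes of ribosome biogenesis and RNA polymerase I 23 fell, 2 rose and the median change was -0.22. *UBTF*, the factor that keeps ribosomal DNA open for RNA polymerase I, was at 9.81, 9.81 and 9.89 before and at 8.88, 8.93 and 8.81 after OXA (1.95-fold lower, adjusted p = 5.91e-06). *RRS1* fell 2.04-fold. *BOP1*, a subunit of the PeBoW complex that matures the large subunit, fell from 13.55, 13.57 and 13.40 to 10.07, 10.10 and 9.97, an 11-fold difference and far outside the range of the other members. It too lies near a chromosome end. Both rises, *TAF1C* and *UTP4*, were no longer called when arrays were scaled to the 75th percentile.

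The array also carries probes for ribosomal and other structural RNAs, which were looked up after other values had been seen. The probe for 18S rRNA (*RNA18SN5*) read 18.22, 18.44 and 16.63 before and 14.30, 13.97 and 14.13 after OXA (-3.63 ± 0.45, adjusted p = 0.000308), with untreated replicate 3 apart from the other untreated arrays. The 5.8S probe fell by 2.14 ± 0.23. Of 4 probes for 28S rRNA, 1 fell (by 0.49 ± 0.08) and 3 were not called (-0.03, -0.04 and -0.31). The telomerase RNA *TERC* fell by 1.45 ± 0.11, and the small RNAs *RN7SK* and *RN7SL1* rose by 0.57 ± 0.09 and 0.55 ± 0.10. Of the 77 cytosolic ribosomal protein genes 6 fell, none rose and the median change was -0.019. *RPL3* fell 2.01-fold, *RPL27A* 2.05-fold and *RPL10A* 1.5-fold. This count was set by the scaling, since 50 of the 77 fell when arrays were scaled to the 75th percentile, with normexp or processed values.

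The BCL2 family, which sets the threshold of mitochondrial cell death, held 9 rises (39.1%) and 2 falls (8.7%) among 23 members. Both killers and protectors rose. *BIK*, a BH3-only killer, went from 8.11, 8.14 and 8.25 to 9.53, 9.47 and 9.63 (2.60-fold, adjusted p = 7.28e-08), the BH3-only *BAD* rose 1.97-fold, and *BCL2L1* (BCL-XL), a protector, 1.77-fold. The falls were *BBC3*, given above, and *BOK*, an effector of the outer membrane, from 12.09, 12.18 and 12.30 to 9.59, 9.95 and 9.99 (5.08-fold). *BOK* lies near a chromosome end, 0.654 Mb from that of 2q. *BCL2* itself was dim, at 5.55, 5.46 and 5.70 before and 5.33, 5.34 and 5.46 after OXA, and was not called (-0.20 ± 0.11). Of 21 death receptor genes 5 rose (23.8%) and 2 fell (9.52%), beside 14.6% and 13.8% of genes well above background. *TNFRSF25* (DR3), the receptor of the ligand made by *TNFSF15*, rose 1.99-fold, *FADD* 1.37-fold and *TNFRSF10B* (DR5) 1.36-fold. *DIABLO* and *XIAP*, an antagonist of caspase inhibitors and one of those inhibitors, fell 1.68-fold and 1.33-fold. The rises were 2 rather than 5 when arrays were scaled to the 75th percentile.

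Of 22 feedback genes of the MAPK cascade 12 rose and 1 fell, with a median of 0.51. *DUSP5*, a nuclear phosphatase of ERK, went from 7.85, 7.78 and 8.06 to 9.55, 9.62 and 9.62 (3.25-fold higher, adjusted p = 1.29e-06). *DUSP16* rose 2.14-fold and *SPRED3* 2.77-fold, the latter from a level above background on only 1 untreated array. *SPRY1* fell 1.27-fold. Among 16 EGFR family members and ligands *EGFR* rose 2.25-fold from 9.35, 9.42 and 9.36 to 10.58, 10.56 and 10.50 and its inhibitor *ERRFI1* 1.26-fold, while the ligand *AREG* fell 1.25-fold. *AKT1* fell 1.37-fold (-0.45 ± 0.09, adjusted p = 0.0219).

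Of 18 genes of platinum transport 5 rose (27.8%) and 2 fell (11.1%), beside 14.6% and 13.8% of genes well above background. The copper importer *SLC31A1* (CTR1), which also admits platinum drugs, fell from 9.87, 9.85 and 9.90 to 9.28, 9.35 and 9.47 (1.42-fold, adjusted p = 0.000328), and *SLC31A2* (CTR2) rose 1.38-fold. The exporter *ABCG2* fell 2.88-fold, and the exporters *ABCC5* and *ABCC4* rose 1.64-fold and 1.42-fold.

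Of 46 genes of colonic differentiation and adhesion 8 fell (17.4%) and 3 rose (6.52%), beside 7.62% and 8.33% over all gene names and 13.8% and 14.6% over bright genes. Of 5 carcinoembryonic adhesion molecules 3 fell: *CEACAM5* from 7.02, 6.60 and 6.53 to 4.73, 4.55 and 4.42 (4.44-fold, adjusted p = 0.00639), *CEACAM6* 3.74-fold and *CEACAM1* 2.78-fold. *CEACAM7* (-1.25 ± 0.31, adjusted p = 0.0885) and *CEACAM20* (0.15 ± 0.07) were not called. Their sequences are close, and their probes may share signal. *KLF4*, a factor of goblet cell maturation, rose 2.12-fold, *VIL1*, the actin bundler of the brush border, 2.08-fold and the trefoil factor *TFF2* 1.72-fold. Of 23 genes of the plasminogen system and of matrix proteases, 7 rose (30.4%), 1 fell (4.35%) and 15 were not called. Of the 23, 7 were well above background on no array. *PLAU* (urokinase) went from 9.27, 9.30 and 9.30 to 12, 12.08 and 12.09 (6.81-fold, 2.77 ± 0.06, adjusted p = 1.7e-11). *TIMP2*, an inhibitor of matrix proteases, rose 4.10-fold and *MMP7* (matrilysin) 2.21-fold, and *MMP15* fell 1.85-fold.

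The largest changes were in other genes. Among called genes with a symbol and well above background on all 6 arrays, *PDE6G*, a subunit of a phosphodiesterase known from rod photoreceptors, rose most, from 6.71, 6.74 and 6.69 to 11.92, 12.05 and 11.98 (38.6-fold, 5.27 ± 0.09, adjusted p = 1.43e-12). *SPON2*, a secreted matrix protein, rose 24.5-fold, *ZDHHC11* and its near copy *ZDHHC11B* 18.2-fold and 16.6-fold, *ADSS1* 13.9-fold and *TTLL10* 12.1-fold. The 5 probes of *ZDHHC11* rose by 2.24 to 4.18. *BAIAP3*, *CCK*, *PLAU*, *BIRC3*, *RGS11* and *KLHL5* followed with log2 changes of 3.43, 2.93, 2.77, 2.75, 2.75 and 2.65.

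With the same limits (a symbol, the probe used, and signal above background throughout), the largest fall was that of *SLC19A1*, the reduced folate carrier, from 11.02, 11.05 and 11.07 to 6.12, 6.16 and 6.41 (28.1-fold, -4.81 ± 0.15, adjusted p = 6.25e-10). *PIGQ*, an enzyme of GPI anchor synthesis, fell 25.2-fold, *SLC38A10* 20.3-fold, *CHLSN* 15.5-fold, *ARFRP1*, a GTPase of the Golgi, 14.9-fold and *ANTKMT* 13.7-fold. *CD86*, *CASC15*, *LINC02245* and *LRRC2* fell by 3.89, 3.75, 3.62 and 3.56 and are treated with repeat-bearing probes below. In every one of these rises and falls the 3 OXA arrays lay together on one side of the 3 untreated arrays. Counted over bright genes, 59 (0.305%) rose and 73 (0.377%) fell more than 4-fold, and 506 (2.61%) rose and 513 (2.65%) fell more than 2-fold.

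For genes not above background on any array of one group only a bound on the fold can be given. *LINC02891* was at least 7.73-fold higher after OXA, the pancreatic protease gene *CTRB1* at least 6.88-fold, *LINC02982* at least 3.13-fold and *KCNQ1-AS1* at least 2.78-fold. *CLEC3A* was at least 4.74-fold lower, the bicarbonate carrier *SLC4A4* at least 4.45-fold, *KRT79* at least 4.34-fold, *AGMO* and *LINC02148* at least 4.18-fold and the netrin receptor *UNC5B* at least 3.13-fold. *COL20A1* was at 3.96, 4.04 and 4.67 before, below background on the probe used, and at 9.02, 9.55 and 9.5 after OXA. Its other probes changed by 1.10 and -0.25.

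Many of the largest changes lay close to chromosome ends. The distance of each of 19195 bright genes to the array's outermost probe on its chromosome arm was taken as the distance to the end, and arms without probes, such as short arms of acrocentric chromosomes, gave no end. Within 3 Mb of an end lay 2043 of the genes (10.6%). Of 71 genes that fell more than 4-fold, 44 (62.0%) lay there, and their median distance was 1.81 Mb against 29.1 Mb over all genes. Of 59 that rose more than 4-fold, 18 (30.5%) lay there. At the lower limit of 2-fold the shares were 31.1% of 508 falls and 13.1% of 505 rises.

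By distance, falls of more than 2-fold made up 6.95% of 806 genes in the outermost 1 Mb, 10.0% of 739 between 1 and 2 Mb, 5.62% of 498 between 2 and 3 Mb, 2.12% of 801 between 3 and 5 Mb, and 2.14% of the 11880 genes beyond 20 Mb. Rises of that size took 3.47%, 3.65%, 2.21%, 4.49% and 2.10% of the same bins. Falls were thus more frequent in the outer 3 Mb than further in, and rises had no such step at 3 Mb. The probes were also classed by GC content, since the classes differed in how often genes changed. Within every class of probe GC content, falls of more than 2-fold were more frequent within 3 Mb than beyond: 6.13% against 2.37% at up to 40% GC, 7.09% against 1.79% at 40% to 50%, 7.88% against 1.72% at 50% to 60%, and 16.9% against 5.63% above 60%. These shares are descriptions of neighbouring genes, which are not independent replicates.

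**Figure D3:**
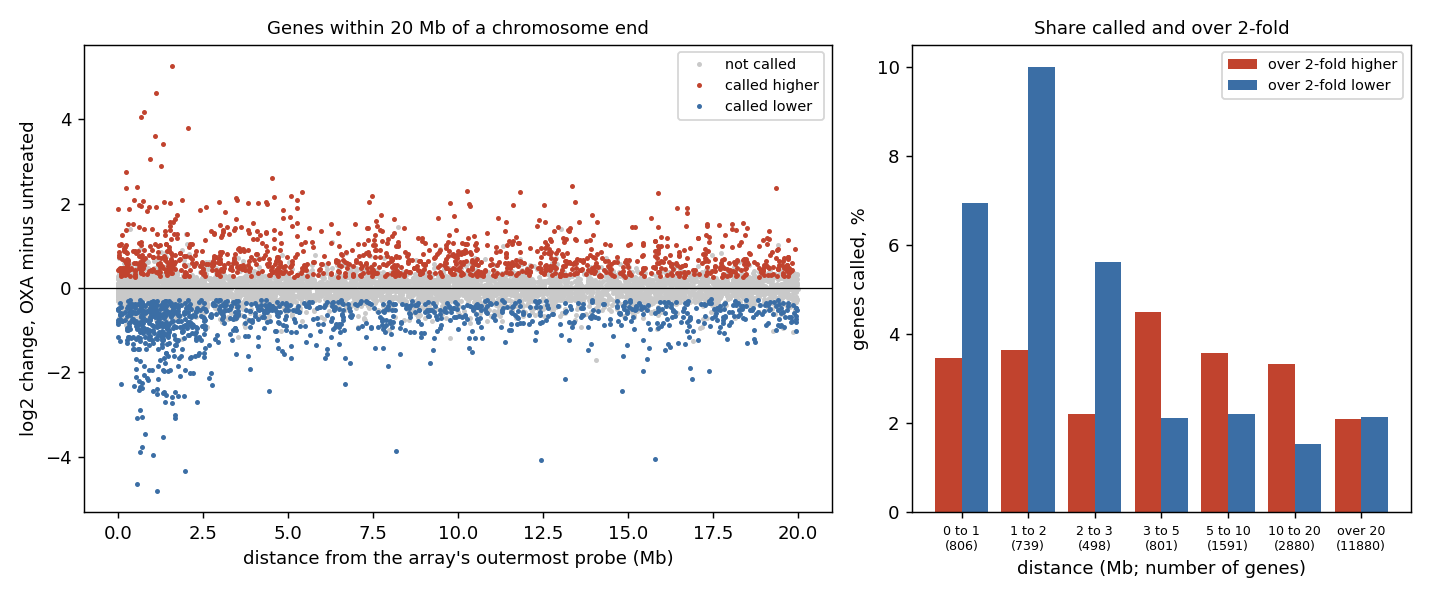
Left, log2 change after OXA in HT29 of each gene well above background on all 6 arrays against its distance from the outermost probe of the arm (Mb), for genes within 20 Mb, with called genes in colour. Right, the share of genes (%) called with more than 2-fold change in each class of distance. Falls of more than 2-fold take 6.95%, 10.0% and 5.62% of genes in the outer 3 bins and 1.53% to 2.20% in the others.

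The ends differed among themselves. At the end of 16p 26 of 147 genes fell and 5 rose more than 2-fold, at 17q 14 of 86 fell and 3 rose, at 1p 13 of 111 and 4, at 9q 11 of 106 and 3, and at 21q 8 of 66 and 1. At 19q none of 79 fell and 2 rose, and at 17p and 20p none of 51 and 50 changed by that much. The genes in the next sentences were picked after their values were seen. On 16p, where these are the falls of more than 4-fold in the stretch, *CAPN15*, *PIGQ*, *RAB40C*, *METTL26*, *METRN*, *ANTKMT*, *HAGHL*, *CIAO3* and *RPUSD1* fell by 2.06 to 4.66 between positions 604502 and 835034, and inside this stretch *NHLRC4* rose by 2.40. On 20q, *RTEL1*, a helicase of telomere maintenance, and its neighbour *ARFRP1* fell by 2.88 and 3.89. On 21q, *COL18A1* and *SLC19A1*, neighbours whose probes lie on opposite strands, fell by 2.51 and 4.81. *PDE6G* rose 5.27 at 1.57 Mb from the end of 17q, where *FAAP100*, 1.68 Mb from the end, fell by 3.08.

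Probes within these genes disagreed in a way that a single value per gene hides. *SLC38A10* lies on the minus strand, and its 3 probes, from the 3′ side to the 5′ side at chr17:79218836-79218895, chr17:79225065-79225124 and chr17:79247220-79247279, changed by -4.34, -2.08 and 0.70. The last was not called and not well above background on all 6 arrays. *ARFRP1*, also on the minus strand, changed by -2.16, -3.89 and 0.21 in that order. For *PWWP3A*, on the plus strand, the probe nearer the 3′ end fell by 3.53, and the one nearer the 5′ end gave -0.60 and was not called. *PIGQ* fell on all 3 probes (by 2.78, 3.40 and 4.66 from the 5′ side), as *SLC19A1* did on both (by 2.62 and 4.81 from the 5′ side), and *NKD2*, an inhibitor of Wnt signalling, gave -0.51 and -2.43 from the 5′ side. These genes were picked from the largest changes after their values were seen, and the order of probes was not tallied over other genes. Whether these probes lie in exons or untranslated regions was not analysed here. Of the 242 genes with more than 1 bright probe and a change above 2-fold on the probe used, all probes had the same sign in 195 and opposite signs in 47, with a median range of 0.65 between probes.

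A second feature of large changes was the sequence of the probe itself. Most bright probes that hold a long run of alternating G and A fell, as counted further on over all such probes. The windows below only show what such runs look like, since their probes were picked by their falls. These 4 are probes of genes named above among the largest falls, with 30 bases of each probe, 5′ to 3′, and the run in capitals.
CASC15 (chr6:22110999-22111058, plus strand, run of 15 bases): tagctgaAGAGAGAGAGAGAGAagagagaa
CD86 (chr3:121839246-121839305, plus strand, run of 12 bases): GAGAGAGAGAGAaaaaagagagatcttgat
LINC02245 (chr2:65129721-65129780, minus strand, run of 18 bases): tacttcAGAGAGAGAGAGAGAGAGtattga
LRRC2 (chr3:46557386-46557445, minus strand, run of 11 bases): aaAGAGAGAGAGAtgaaaagagtaggaaaa

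The coordinates are on GRCh37. *CD86*, a costimulatory molecule of antigen-presenting cells, read 11.04, 11.65 and 10.69 before and 7.06, 7.39 and 7.24 after OXA. *CASC15* read 11.22, 11.86 and 11.06 and then 7.78, 7.45 and 7.66, and *LINC02245* 11.72, 12.10 and 11.33 and then 8.05, 8.08 and 8.15. In each of the 3, untreated replicate 2 was the highest array and untreated replicate 3 the lowest untreated one, and the OXA arrays were below all of them. Other probes of the same genes did not show the change. The 2 further probes of *CASC15* gave -0.29 and -0.22, the further probe of *LRRC2* -0.72 and that of *LINC02245* 0.19, none of them called, and none of these was well above background on all 6 arrays.

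Over all bright probes 12.9% fell and 13.4% rose. Of 9 probes with a run of 11 or 12 alternating G and A, 9 fell, with a median of -3.87, and of 7 with a run of 13 or more, 6 fell, with a median of -3.75. The exception was the probe of *SMARCA4*, a chromatin remodelling ATPase, which holds a run of 15 and read 14.89, 14.84 and 14.78 before and 15.02, 14.92 and 14.89 after OXA (0.11 ± 0.07). The falls include *REP15* (-1.83), *SPEN* (-1.39) and *VPS18* (-1.11), named here after their values were seen. Of 92 probes with runs of 8 or 9, 12 fell and 15 rose, near the shares over all probes. Probes with runs of alternating C and T, the complement of the former, went the other way where the run was long. All 3 with 13 or more bases rose (median 2.03, *AIF1L* by 1.82), and of 6 with 11 or 12 bases 2 rose, *RIGI* being one, while *RELA* (0.23) was among those not called. Long runs of alternating C and A or G and T did not share in this: of 8 and 25 bright probes with 13 or more bases, 1 and 1 rose and none and 1 fell. These probes share sequence, so they may share a target and do not count as separate genes. What binds to them was not tested.

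**Figure D4:**
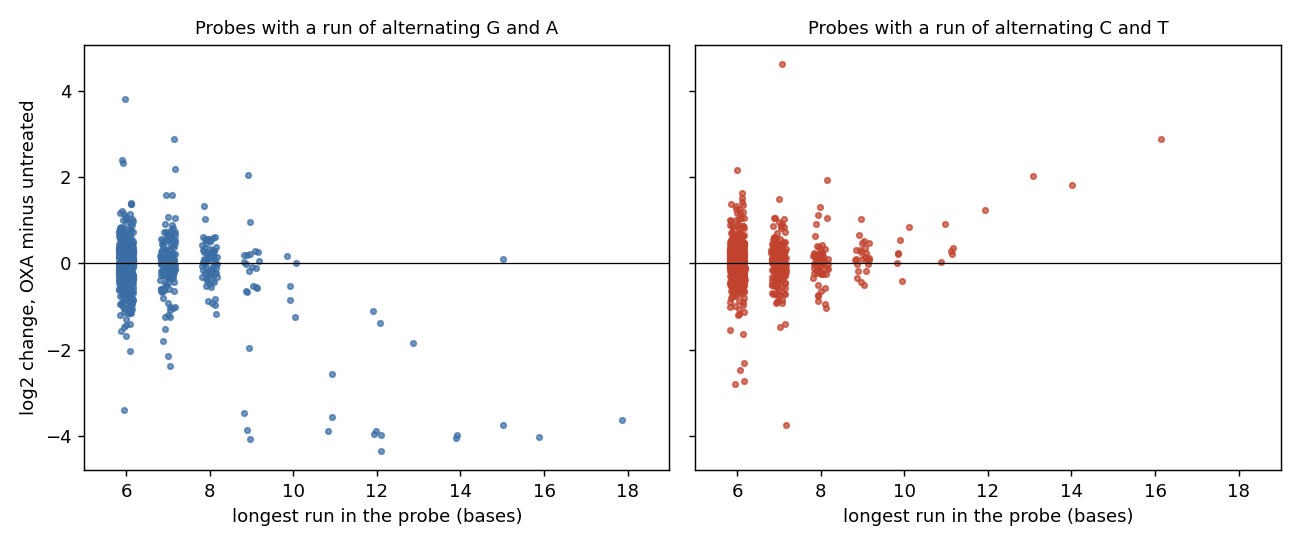
Log2 change after OXA in HT29 of probes well above background on all 6 arrays against the longest run of alternating bases in the 60-base probe, for G and A (left) and C and T (right). Points are single probes, shifted slightly sideways. From 11 bases on, 15 of 16 G and A probes fell, by 1.11 to 4.34, and the 3 C and T probes with 13 or more bases rose by 1.82 to 2.89.

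In HTOXAR3, after 24 h with OXA at 30 µM, 3709 gene names were called (10.2%), 1921 of them higher (5.31%) and 1788 lower (4.94%). The dose was the IC50 of each line, so a difference between the responses is a difference of line and of dose together, and these cannot be told apart. The responses differed in 364 gene names (1.01%) by the interaction of line and treatment in limma. Of these, 342 had also been called in HT29, and in 334 of them the change was smaller in HTOXAR3, 205 of 208 falls and 129 of 134 rises. This tally is a description, since the genes were picked by their call in HT29 and the same arrays enter the difference. Of the 364, 22 were not called in HT29 and 10 were called in both lines with opposite signs.

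*SLC19A1* fell by 4.81 in HT29 and by 0.94 in HTOXAR3, a difference of 3.88 ± 0.21 (adjusted p = 1.76e-06), and *PDE6G* rose by 5.27 and 1.73, a difference of -3.54 ± 0.12. Of the 342 genes with a difference, well above background on 12 arrays and with a position, 152 (44.4%) lay within 3 Mb of a chromosome end, against 10.6% of the 17423 such genes. Of those 17423 genes, 1841 lay within 3 Mb, where 213 changed more than 2-fold in HT29 and 47 in HTOXAR3, and 60 and 3 more than 4-fold. Among the 15582 further in, 749 and 314 changed more than 2-fold, and 64 and 20 more than 4-fold. The probes with runs of 11 or 12 and of 13 or more alternating G and A had medians of -2.58 and -2.36 in HTOXAR3. The interaction was called for none of those among the named genes (*CD86*, *CASC15*, *LINC02245* and *LRRC2*, adjusted p = 1 for each).

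**Figure D5:**
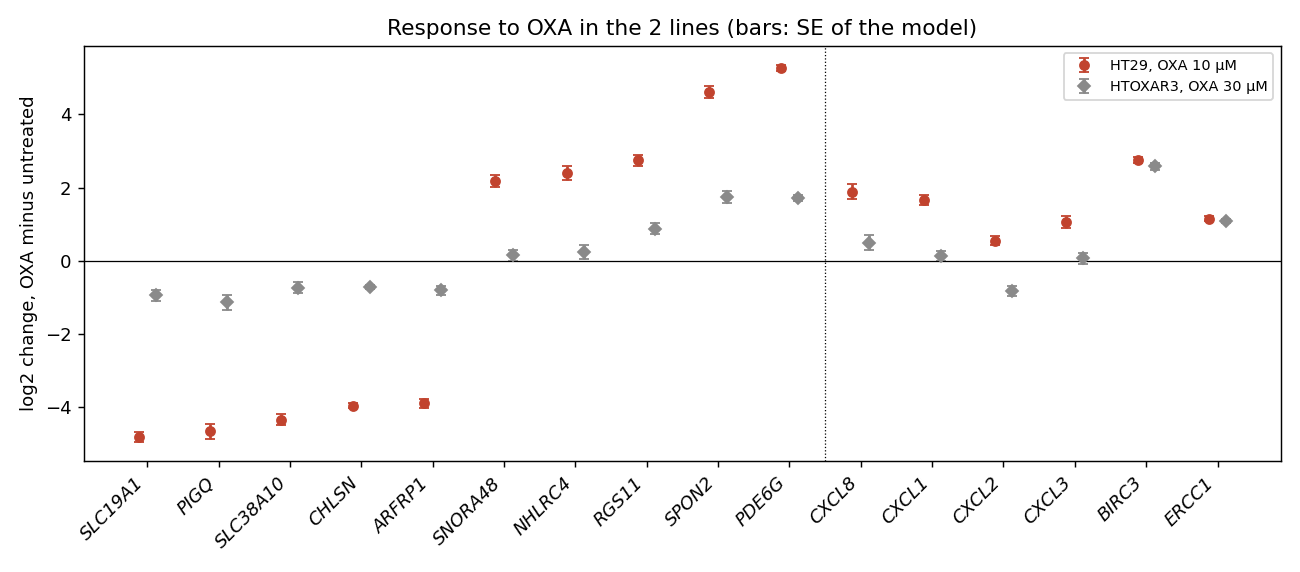
Log2 change after OXA (points) with the SE of the model (bars) in HT29 at 10 µM and in HTOXAR3 at 30 µM, for the 5 genes of each sign with the largest called differences between the lines among genes with a symbol well above background on 12 arrays (left of the dotted line) and for 6 genes described above. *SLC19A1* moves from -4.81 to -0.94 and *PDE6G* from 5.27 to 1.73, whereas *BIRC3* (2.75 and 2.58) and *ERCC1* (1.16 and 1.09) lie side by side.

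The difference was called for 2 of the 32 chemokines. *CXCL1* rose by 1.67 in HT29 and changed by 0.14 in HTOXAR3 (difference -1.53, adjusted p = 0.00373), and *CXCL2* rose by 0.56 and changed by -0.82 (difference -1.38, adjusted p = 0.0064). For *CXCL8* the changes were 1.89 and 0.50, and the difference of -1.39 was not called (adjusted p = 0.2). *CDKN1A* changed by 0.04 and 0.88, and that difference was not called (adjusted p = 0.31). *SLC7A5*, *VIL1*, *MMP7*, *PLAU* and *TIMP2* changed less in HTOXAR3, with differences of 0.86, -0.82, -0.73, -0.77 and -1.13, each called. For *BIRC3*, *NFKB2*, *RELB*, *ERCC1*, *EGFR*, *HMOX1*, *INSIG1*, *HSPA5* and *CENPE* the difference was not called, and it ran from -0.22 to 0.47.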

How the data were processed

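The arrays of this comparison measured total RNA of HT29 cells, with 3 untreated and 3 OXA arrays. Groups were taken from the sample titles. The authors labelled the RNA with Cy3, hybridised it to one-colour Agilent arrays and read them with Agilent Feature Extraction. They deposited, for each array, the mean intensity of every spot with the median of the background around it, without normalization between arrays, and a processed intensity from which the scanner software had taken the background. They also deposited a table of log2 values after their own processing, whose lines carry no gene name here and which was used for counts only.

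Following the study's methods, the mean intensity was corrected with normexp (offset 0, as none is stated) and arrays were quantile normalized. The study's methods do not state the steps that follow. Control spots were dropped before quantile normalization. After it, repeated spots of a probe were averaged, with outlier-flagged spots treated as missing. *SP5* has no value on OXA replicate 3 for this reason. The 50599 probes carried 36204 names, and the probe with the highest mean was used for the 8947 names with more than 1. RefSeq symbols were matched for 21095 names through an accession, for 1228 directly and for 275 through an earlier symbol, and 13606 kept the array's name. A model with 6 group terms was fitted to all 18 arrays with lmFit and eBayes (limma 3.58.1, R 4.3.3, the data.table package in version 1.17.8), and figures were drawn with Python 3.11.15, pandas 2.3.3 and matplotlib 3.10.9. Calls took the thresholds of the study (fold above 1.2, BY adjusted p below 0.05). With 3 arrays a group, the number of arrays limits precision. A bound on a fold sets the group mean of the bright arrays against the higher of the dim probe and the lowest probe well above background.

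Genes were named if they had the 12 largest rises or falls among bright genes with a symbol, the 6 largest with a bound, the 3 largest in a list, or the 5 largest differences between lines, or were 1 of 15 genes of the study's topic. Members of lists shown beyond these were named after their values were seen. The lists, members and tests were chosen with earlier results of these data known. Untreated and OXA arrays of the same number shared a slide, and their deviations from the group means correlated at 0.117, 0.132 and 0.242, against -0.139 to 0.005 for other numbers, so the numbers were taken as pairs and slide as the block. Alternatives were other offsets, scaling to the 75th percentile, the processed intensity, the mean of all probes, dim genes left out, Benjamini-Hochberg adjustment, a 2-fold minimum, the 6 arrays alone, the block, the values deposited by the authors and leaving out each array. A few genes, and 1 list of targets, are not reported here.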

Additional observations from a re-analysis of the deposited data

Results flagged for a closer look

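The response to OXA differed between HTOXAR3 and HT29 by a test of the interaction in 364 gene names, and 10 of them are named here as the 5 largest differences of each sign among bright genes with a symbol. The HT29 response was subtracted from the HTOXAR3 response, on the log2 scale, with adjusted p-values of limma. They were 3.88 for *SLC19A1* (adjusted p = 1.76e-06), 3.61 for *SLC38A10* (4.81e-06), 3.53 for *PIGQ* (7.78e-05), 3.24 for *CHLSN* (2.99e-09) and 3.1 for *ARFRP1* (2.75e-06), which fell in both lines and less in HTOXAR3. They were -3.54 for *PDE6G* (3.12e-08), -2.87 for *SPON2* (0.000128), -2.15 for *NHLRC4* (0.00559), -2.03 for the small nucleolar RNA *SNORA48* (0.000998) and -1.87 for *RGS11* (0.00138), which rose in HT29. Of these, *NHLRC4* and *SNORA48* were not called in HTOXAR3. Line and dose of OXA cannot be told apart in these differences. Groups of 3 arrays were not searched for outlying arrays.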

How the results depend on the processing

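The count of 5774 called gene names became 1179 at a 2-fold minimum, 1338 with the 6 HT29 arrays alone and 0 with those 6 arrays and slide as a replicate block, and ran from 4647 to 5265 when 1 array was left out, the lowest without OXA replicate 2. With the replicate block and all 18 arrays it was 6124. The other alternatives gave 5189 to 7944. The count of 364 differences between the lines became 636 at an offset of 50, 646 with dim genes left out, 1087 with Benjamini-Hochberg adjustment and 178 at a 2-fold minimum, and ran from 259 to 321 with 1 array left out. The block left it at 360. Of 185 named genes 1 changed sign, *TRAF2*, at 0.0083 with the mean of all probes. Of the 185, 4 lost their call with the block and all 18 arrays, and 84 with the 6 arrays alone. With those 6 arrays and the block 180 did, where fewer degrees of freedom were left. With the 6 arrays alone the rises numbered 10 rather than 24 for interferon-stimulated genes, 6 rather than 11 for NF-κB genes and 2 rather than 12 for MAPK feedback genes, and the falls 10 rather than 32 for G2 and mitosis, 8 rather than 20 for the unfolded protein list and 5 rather than 16 for cholesterol synthesis. Scaling to the 75th percentile moved the share of calls that were higher from 52.2% to 48.8% with normexp values. Dim probes limit the precision of low genes.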

Other observations

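Some further lists are given by their counts. Of 30 genes of glycolysis and the response to low oxygen 6 rose (20%) and 1 fell (3.33%), beside 14.6% and 13.8% of bright genes. *ENO2*, an enolase of neurons and hypoxic cells, rose by 1.51, *P4HA2*, a collagen prolyl hydroxylase, by 1.19, and *ANGPTL4*, an inhibitor of lipoprotein lipase that was well above background on 1 untreated array, by 2.40, whereas the hexokinase *HK2* fell by 1.03. The next 3 lists had shares of calls near or below those of bright genes. Of 23 Wnt and stem cell targets 3 rose and 3 fell. The Wnt inhibitors *NKD1* and *NKD2* went opposite ways, with changes of 1.91 and -2.43, and *MYB* and *CD44* fell by 1.10 and 0.68. Of 23 AP-1 and immediate early factors 3 rose, among them *MAFF* (1.02) and *FOSL1* (0.45), and none fell. Of 13 metallothioneins and zinc carriers, which bind or move metal ions, *SLC30A1* rose by 0.60 and *MT1G* fell by 0.75, and the fall was no longer called when arrays were scaled to the 75th percentile.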
